A study of Capra hircus with 6 samples.

Results

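The plasminogen activation system was followed through 6 genes chosen by name: PLAU, PLAUR, PLAT, SERPINE2, ANXA2 and S100A10. Each is present under its symbol among the 16285 gene identifiers of the deposited tables, and all 6 passed the filter on low values that left 10761 genes for testing. The values come from RNA sequencing of goat (Capra hircus) adipose mesenchymal stem cells, cultured stromal cells of fat with the capacity to become adipocytes. The 6 libraries fall into 3 controls, labelled WT, and 3 labelled as overexpressing YAP, and the labels record adipogenic differentiation as the treatment of both groups. The sample titles name YAP, whereas the design text of the series names cells overexpressing TAZ. The deposited values also include 3 columns named TAZ, which match no sample title and are identical to none of the 6 libraries. The labels do not say how YAP was introduced or whether the replicates are separate cultures or animals, so the p-values reflect the spread among these libraries alone, and that spread may be technical.

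Plasminogen is an inactive protease precursor that circulates in blood and reaches tissues. Urokinase (PLAU), bound to its receptor on the cell surface (PLAUR), and tissue-type activator (PLAT) cut it to plasmin, which degrades fibrin and other matrix proteins and activates further proteases and growth factors. Serpins such as SERPINE2 and SERPINB2 trap the activators in inactive complexes, while annexin A2 (ANXA2) and its partner S100A10 form a complex that holds plasminogen and tissue-type activator at the cell surface. In fat tissue the system is known for its part in the remodelling of the matrix around growing adipocytes.

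Values are FPKM, fragments scaled to the length of the gene and to the library's total, so levels of different genes can be set side by side per length. The FPKM implied library totals of 32593380 to 37131015 fragments, and the whole reads recovered from the FPKM summed to 32467189 to 36992380 per library. YAP1 itself measured 27.2 ± 1.54 FPKM in the control group against 27.4 ± 1.57 in the group labelled as overexpressing it (mean ± SD, n = 3 each; limma adjusted p = 0.95). WWTR1, the gene of TAZ, was lower in that group, with means of 32.0 ± 3.38 and 21.4 ± 1.98 FPKM (log2 change -0.56, limma adjusted p = 0.0013). The kinase gene LATS2 had 7.64 ± 0.62 and 8.66 ± 0.09 and did not pass (limma adjusted p = 0.17). The group is therefore called the libraries labelled YAP, and each direction below is that of the labelled group. In the table of the YAP libraries, 3 further columns named pcDNA repeat the values of control replicates 1 to 3 exactly for all 16285 genes. Whether the controls carried a vector of that name is not stated in the labels. All 8 stromal markers were tested, and 4 rose, 2 fell and 2 did not pass. COL1A1 rose from 3674 ± 73.9 to 5890 ± 166 FPKM and PDGFRB from 41.5 ± 3.44 to 74.3 ± 5.14, while ENG fell from 150 ± 14.8 to 80.8 ± 4.98 and NT5E from 170 ± 10.9 to 127 ± 6.38. Their summed level, most of it VIM, COL1A1 and COL1A2, ran from 19445 to 20571 FPKM in controls and from 20872 to 21391 in the libraries labelled YAP, and their part in the changes below was not tested. Endothelial markers, of interest because endothelium is a known source of PLAT, summed to at most 0.533 FPKM in any library, with CDH5 and KDR at no more than 1 read. The adipocyte regulator gene PPARG had 2 to 4 reads per library, and 7 adipocyte markers summed to 18.5 to 23.0 FPKM in controls and 10.1 to 12.4 in the libraries labelled YAP, most of it CIDEC. Epithelial markers summed to at most 1.90 FPKM.

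Between the groups, 2 of the 6 genes rose (PLAU and SERPINE2), 3 fell (PLAT, ANXA2 and S100A10), and PLAUR did not pass the test. These calls rest on a linear model of log2(FPKM + 1) fitted with limma across all tested genes, with Benjamini-Hochberg adjustment and a threshold of 0.05. Among all tested genes 35.9% passed, 12.9% as higher and 23% as lower. Lower calls were 64.0% of all calls, and 45.6% after median-of-ratios scaling, which moved the median log2 change of all genes from -0.10 to -0.01. The median log2 change was -0.26 over the 6 members and -0.10 over all tested genes, so that a small fall is close to the middle of these data. FPKM of the groups did not overlap for any of the 6 genes, as for 48.3% of all tested genes. Permuting the libraries exactly (two-sided) gave p = 0.1 for each member, the smallest p that 3 against 3 libraries allow.

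**Figure D1:**
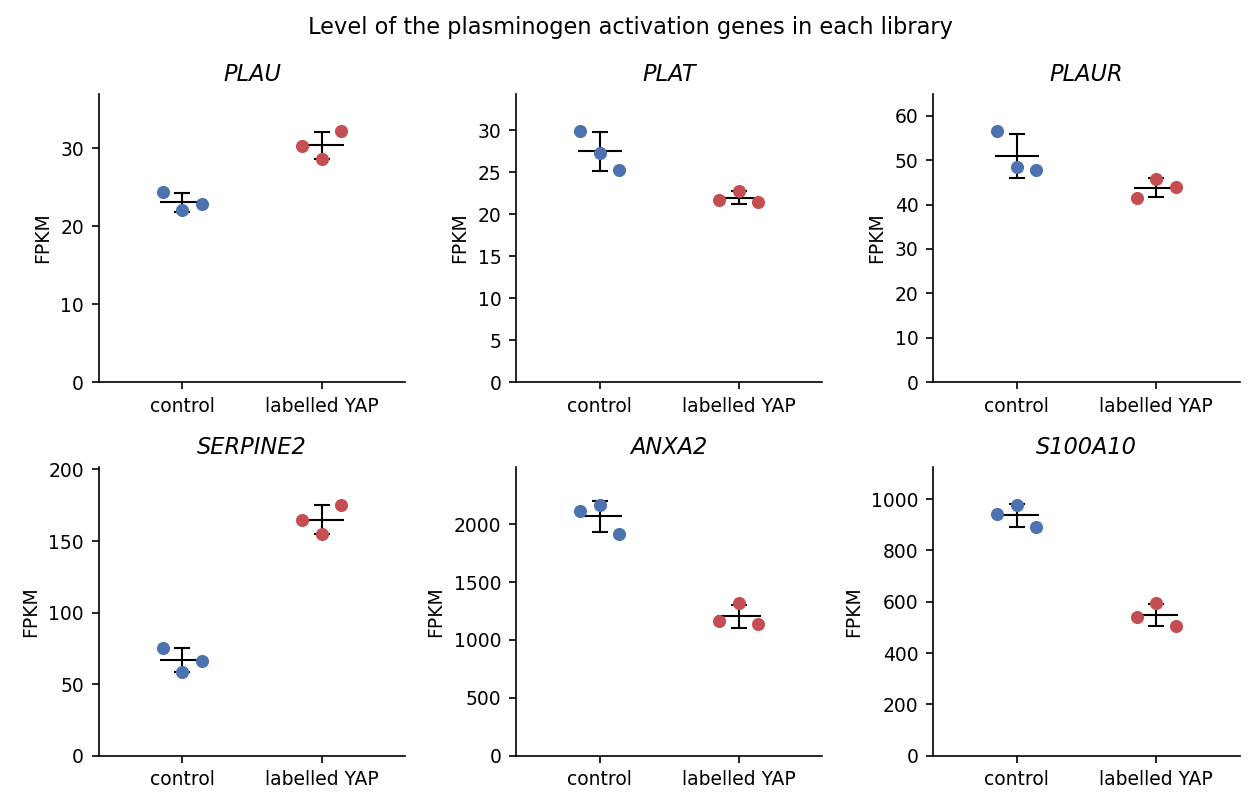
FPKM of the 6 genes in each library (points), with the group mean and SD (black), for the 3 control libraries and the 3 libraries labelled YAP; each axis starts at 0. PLAU and SERPINE2 lie higher in every library labelled YAP than in any control, and PLAT, PLAUR, ANXA2 and S100A10 lie lower.

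The activators moved in opposite directions. PLAU, the secreted serine protease urokinase, had 24.4, 22.0 and 22.8 FPKM in control replicates 1 to 3 and 30.3, 28.7 and 32.2 in the libraries labelled YAP. All 3 of the latter lay above the highest control. Group means were 23.1 ± 1.22 and 30.4 ± 1.76 FPKM, a 1.32-fold ratio and log2 change 0.38 (SE 0.08, 95% confidence interval (CI) 0.21 to 0.56, limma adjusted p = 0.0038). PLAU passed the test in each of 15 alternative analyses, with log2 changes from 0.34 to 0.47. Each value rested on 1780 to 2852 reads.

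PLAT, the tissue-type activator, which acts best on plasminogen bound to fibrin or to a cell surface, had 29.9, 27.3 and 25.3 FPKM in controls. It had 21.7, 22.8 and 21.4 FPKM in the libraries labelled YAP, all below the lowest control. The mean went from 27.5 ± 2.30 to 22.0 ± 0.72 FPKM, a log2 change of -0.31 (SE 0.08, 95% CI -0.49 to -0.12, limma adjusted p = 0.015). This fall was the least secure of the 5 calls. Its limma adjusted p was 0.070 after median-of-ratios scaling (log2 change -0.22), 0.051 after quantile normalization (-0.22), 0.072 without YAP replicate 1 (-0.30) and 0.051 without YAP replicate 3 (-0.29). It passed in the other 11 of 15 alternatives.

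The order of the activators in FPKM, which rests on the gene lengths used, changed with the group. PLAT was above PLAU in each control library, with PLAU to PLAT ratios of 0.817, 0.806 and 0.901, and below it in each library labelled YAP, with ratios of 1.39, 1.26 and 1.503. PLAT had more recovered reads, which are not scaled to length, than PLAU in YAP replicates 1 (2848 against 2670) and 2 (2633 against 2230). In YAP replicate 3 it had fewer (2818 against 2852). A ratio of 2 genes within a library does not depend on how libraries are scaled, and its change does not depend on gene length. In every library labelled YAP, PLAU lay above and PLAT below all controls, so this ratio could not overlap between the groups. It restates the changes of the 2 genes. The log2 ratio was 0.72 higher in the libraries labelled YAP (exact permutation p = 0.1, adjusted p = 0.125 over the 5 ratios computed, where 0.1 is the smallest raw p possible). Summed FPKM of PLAU and PLAT, computed after these values were seen, were 50.5 ± 3.29 in controls, against 52.3 ± 1.11 in the libraries labelled YAP, ranges that overlapped.

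PLAUR, the receptor that anchors urokinase to the membrane through a lipid tail, had 56.5, 48.4 and 47.8 FPKM in controls and 41.5, 45.8 and 44.0 in the libraries labelled YAP. Control replicate 1 stood above the other controls, and the remaining values lay close together. Means were 50.9 ± 4.90 and 43.8 ± 2.16 FPKM, with a log2 change of -0.21 (SE 0.09, 95% CI -0.40 to -0.02) that did not pass after adjustment (limma adjusted p = 0.080). With the libraries weighted by their quality the log2 change was -0.28 and passed (limma adjusted p = 0.0030). Without control replicate 1 it was -0.13 (limma adjusted p = 0.21).

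In every library labelled YAP, PLAU lay above and PLAUR below all controls, so the ratio of ligand to receptor transcripts could not overlap between the groups. PLAU stood at 0.432, 0.455 and 0.477 of the level of PLAUR in control replicates 1 to 3. In the libraries labelled YAP the ratios were 0.728, 0.625 and 0.732, a difference in log2 ratio of 0.61 (exact permutation p = 0.1, adjusted p = 0.125).

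SERPINE2 showed the largest change of the 6. It encodes protease nexin-1, a secreted and matrix-bound serpin that inhibits urokinase, tissue-type activator, plasmin and thrombin. Its level was 75.5, 58.7 and 66.1 FPKM in controls and 164, 155 and 175 in the libraries labelled YAP, so that every library labelled YAP lay above every control. The ratio of means was 2.47-fold, a log2 change of 1.30 (SE 0.10, 95% CI 1.08 to 1.51, limma adjusted p = 1.9e-06), at rank 164 of the tested genes by p. It ranked 1078 by mean level among all 16285 genes in controls, against 394 in the libraries labelled YAP. The 15 alternatives gave log2 changes from 1.21 to 1.39, and SERPINE2 passed in each.

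Set against this inhibitor, both activators had lower ratios in every library labelled YAP than in any control, although PLAU itself rose. These ratios restate the changes of the single genes given above. The ratio of PLAU to SERPINE2 was 0.323, 0.375 and 0.344 in controls. It was 0.184, 0.185 and 0.183 in the libraries labelled YAP, nearly the same in each. The ratio of PLAT to SERPINE2 was 0.396, 0.465 and 0.382 in controls and 0.132, 0.147 and 0.122 in the libraries labelled YAP. The differences in log2 ratio were -0.91 (exact 90% interval from pairwise differences -1.03 to -0.80) and -1.63 (-1.93 to -1.38). The exact permutation p was 0.1 for both, with an adjusted p of 0.125.

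**Figure D2:**
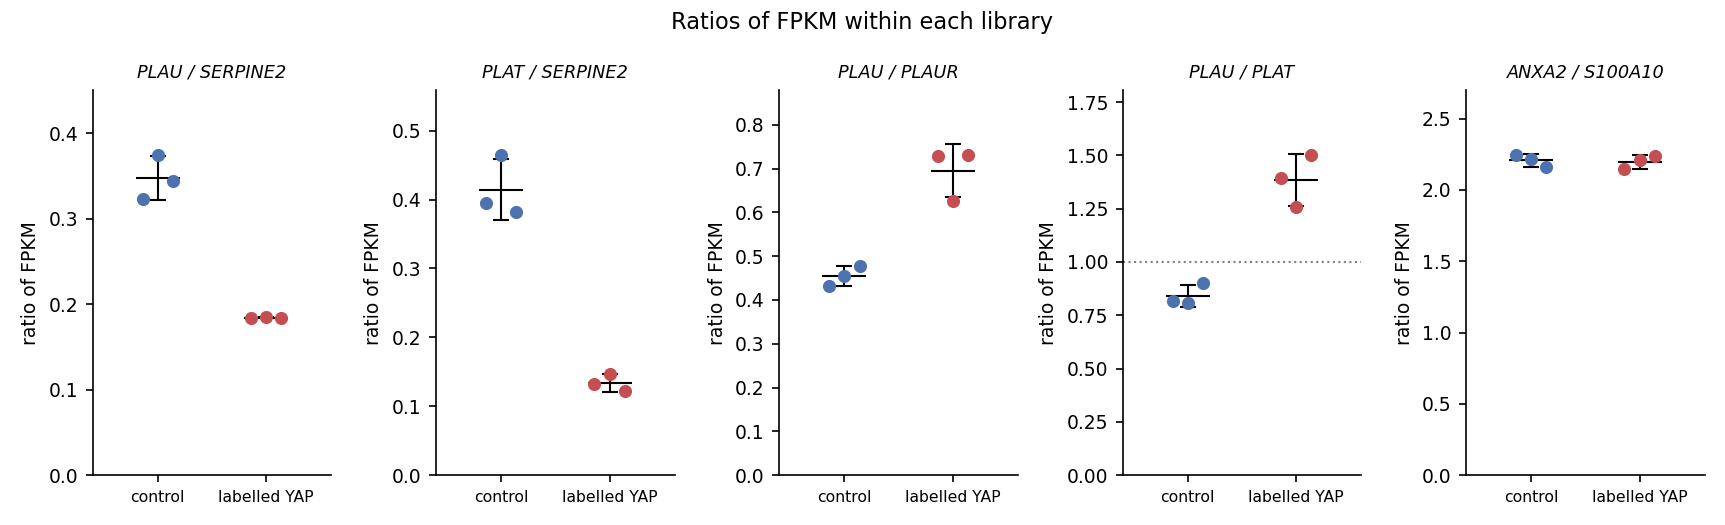
Ratio of FPKM of 2 genes within each library (points), with group mean and SD (black), for the 5 ratios examined; each axis starts at 0 and the dotted line marks equal levels of PLAU and PLAT. The ratio of PLAU to PLAT crosses from below 1 to above 1, whereas that of ANXA2 to S100A10 lies between 2.14 and 2.25 in all 6 libraries.

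ANXA2 and S100A10, the pair that holds plasminogen at the membrane, were by far the most abundant of the 6 genes and fell together. ANXA2, a calcium-dependent phospholipid-binding protein, had 2116, 2169 and 1919 FPKM in controls and 1163, 1317 and 1134 in the libraries labelled YAP. Every control lay far above every library labelled YAP. The mean went from 2068 ± 132 to 1205 ± 98.5 FPKM, a log2 change of -0.78 (SE 0.09, 95% CI -0.99 to -0.57, limma adjusted p = 9.0e-05). By mean level it was gene 16 of 16285 in controls and gene 38 in the libraries labelled YAP. No source used here says how reads shared with related genes or pseudogenes were treated.

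S100A10, also called p11, an S100 protein that does not need calcium to bind its partner, carries the C-terminal lysines known to bind plasminogen. It had 942, 978 and 890 FPKM in controls and 542, 595 and 507 in the libraries labelled YAP. The groups again lay far apart, with means of 937 ± 44.7 and 548 ± 44.5 FPKM and a log2 change of -0.77 (SE 0.09, 95% CI -0.97 to -0.58, limma adjusted p = 5.5e-05). Both genes passed in each of 15 alternatives, with log2 changes from -0.85 to -0.69 for ANXA2 and from -0.83 to -0.68 for S100A10.

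The proportion between the partners was nearly constant. ANXA2 stood at 2.25, 2.22 and 2.16 times the level of S100A10 in controls and at 2.14, 2.21 and 2.24 times in the libraries labelled YAP. The difference in log2 ratio was -0.01, with an exact 90% interval from pairwise differences of -0.07 to 0.05 (exact permutation p = 0.7), and its sign turned without control replicate 1 (0.01) or YAP replicate 1 (0.01). Inside each group both were highest in replicate 2, and lowest in control replicate 3 and YAP replicate 3. VIM and S100A11 showed the same order, so this order is not particular to the pair.

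**Figure D3:**
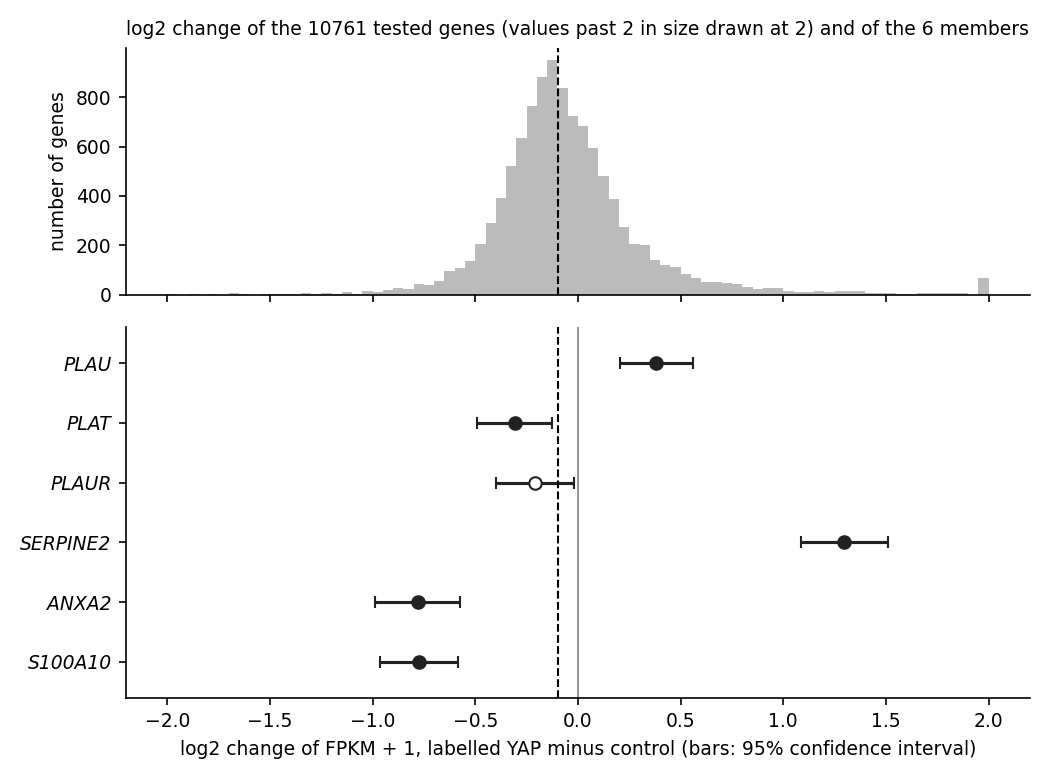
Top: histogram of the log2 change of all 10761 tested genes, with values past 2 in size drawn at 2. Bottom: log2 change of each of the 6 genes with its 95% CI, filled where limma adjusted p is under 0.05; the dashed line is the median of all tested genes, -0.10.

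Genes with the most similar pattern over the 6 libraries were sought for SERPINE2, S100A10 and ANXA2, the members with the smallest adjusted p. Likeness was the root mean square difference of log2(FPKM + 1), centred on each gene, among 9931 other genes with a symbol and a mean of at least 1 FPKM. The closest gene to S100A10 was ANXA2, at a difference of 0.026, followed by PRDX1 (0.027), a peroxide-reducing enzyme, and FHL3 (0.031), a LIM domain protein. For ANXA2 the order was CAMK2N2 (0.021), S100A10 (0.026) and FHL3 (0.034). PRDX1 went from a highest control of 2660 FPKM to 1429 to 1613 FPKM in the libraries labelled YAP. For SERPINE2 the closest were HERC6 (0.030), an interferon-induced ubiquitin ligase, TMEM51 (0.039) and RNF149 (0.045). PLAU was at 0.46 from SERPINE2. These distances are over the same 6 libraries as the fold changes and largely restate them.

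Other inhibitors and plasmin regulators were taken from a list of 14 genes, which had 11 entries in the tables. PLG, the plasminogen gene, was not analysed here. Of 5 tested entries, 2 rose (both named SERPINB2), 1 fell (CLEC3B) and 2 did not pass, with a median log2 change of 0.08. The count of 3 was 2 without control replicate 1 and with no filter on low values. For this list and those below, the shares over all tested genes were 12.9% higher and 23% lower, with a median log2 change of -0.10.

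SERPINB2, plasminogen activator inhibitor 2, is a clade B serpin that lacks a cleaved signal peptide and is found largely inside cells. The tables name it under 2 identifiers without a symbol of their own. LOC102181552, which lies next to SERPINB7 and an entry named SERPINB10 in the RefSeq annotation, had 101, 101 and 114 FPKM in controls. In the libraries labelled YAP it had 2122, 1910 and 2336 FPKM, above ANXA2 in each of them. The ratio of means was 20.2-fold (log2 change 4.32 ± 0.09 SE, limma adjusted p = 3.8e-10), the largest log2 change among the tested entries of the lists examined here. LOC102170373, which lies between an entry named SERPINB8 and SYT4, had 12.9, 9.28 and 10.9 FPKM in controls. It had 18.7, 18.95 and 22.8 FPKM in the libraries labelled YAP (log2 change 0.82, limma adjusted p = 3.2e-04). Both carry the name SERPINB2 only through the symbol column, and whether they encode the same protein was not examined. No source used here says how reads that match both entries were treated, so the smaller value is uncertain.

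**Figure D4:**
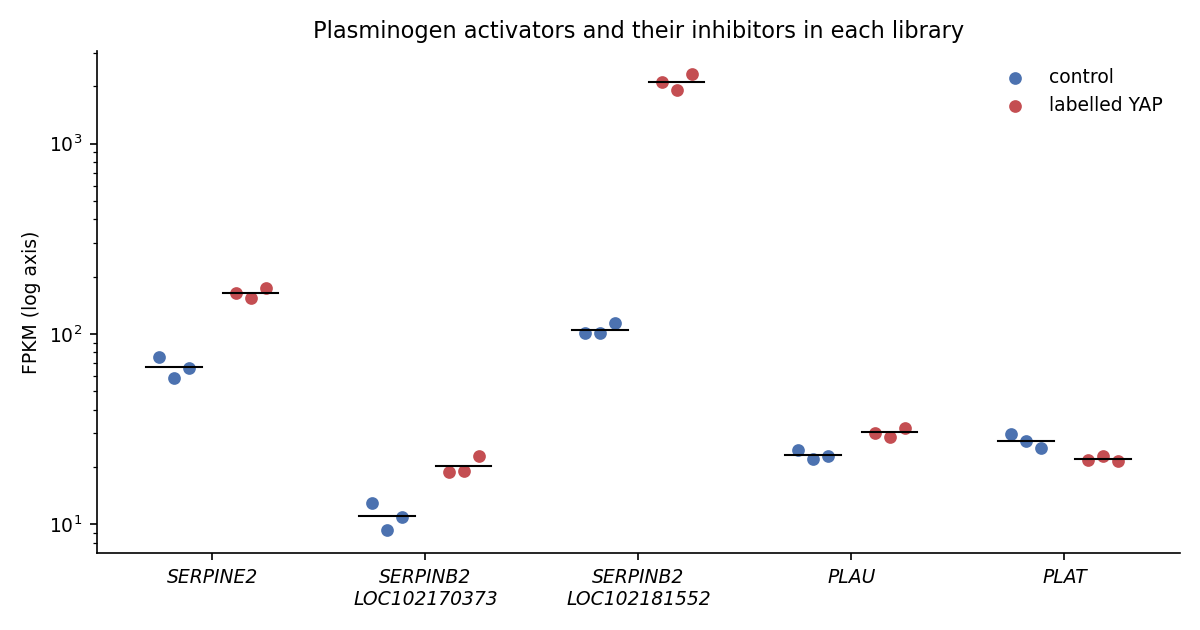
FPKM on a log axis of 3 inhibitor entries (SERPINE2 and the 2 entries named SERPINB2) and of the activators PLAU and PLAT in each library (points), with group means (lines). SERPINB2 at LOC102181552 goes from a mean of 105 FPKM to 2123 FPKM, and SERPINE2 from 66.8 to 165 FPKM.

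Among the surface plasminogen receptors of the same list, PLGRKT, a membrane protein with a C-terminal lysine, had 17.6 ± 1.24 and 18.6 ± 0.50 FPKM (limma adjusted p = 0.47). ENO1, a glycolytic enzyme that also binds plasminogen at the cell surface, had 1653 ± 143 and 1687 ± 82.4 FPKM (limma adjusted p = 0.81). CLEC3B, the plasminogen-binding protein tetranectin, fell from 102 ± 18.4 to 70.5 ± 9.39 FPKM (limma adjusted p = 0.011, and 0.065 without control replicate 1). Transcripts of the blood-borne regulators were near the limit of detection: SERPINF2 had at most 2 reads, CPB2 at most 3, F12 at most 1 and KLKB1 had 0 in every library.

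Of 14 tested partners and clearance receptors of the urokinase receptor, 5 rose and 2 fell, with a median log2 change of 0.08. The count of 7 was 4 without control replicate 1, YAP replicate 1 or YAP replicate 3, and 4 with no filter on low values. VLDLR, which takes up complexes of activator and inhibitor, rose from 3.91 ± 0.56 to 11.1 ± 0.61 FPKM, by 1.31 on the log2 scale (SE 0.10, limma adjusted p = 2.7e-06). LRP1, the main such clearance receptor, rose from 141 ± 16.1 to 181 ± 28.6 FPKM (limma adjusted p = 0.040). That call was lost in 5 of 15 alternatives: the limma adjusted p was 0.066 without control replicate 1, 0.13 without control replicate 2, 0.11 without YAP replicate 1, 0.14 without YAP replicate 3 and 0.11 with no filter on low values. MRC2, a collagen receptor that associates with PLAUR, rose from 35.6 ± 2.80 to 53.1 ± 2.65. Of the integrin subunits in the list, ITGA5 fell from 183 ± 13.7 to 124 ± 2.79 FPKM and ITGB1 from 357 ± 57.2 to 258 ± 41.4, while ITGAV, ITGA3, ITGB3 and ITGB5 did not pass. ITGB2 and ITGAM were below the filter and not tested: ITGB2 had 12, 0 and 1 reads in controls against 44, 54 and 54 in the libraries labelled YAP, and ITGAM at most 2 reads. The ITGB1 call (limma adjusted p = 0.020) was lost in 5 of 15 alternatives, with a limma adjusted p of 0.087 without control replicate 1 and 0.069 without control replicate 3.

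Of 12 tested substrates of plasmin or its activators, 4 rose and 6 fell, with a median log2 change of -0.11. The count of 10 was 7 without control replicate 1. THBS1, a matrix glycoprotein, rose from 298 ± 40 to 721 ± 121 FPKM. PDGFD, a growth factor that urokinase can activate, rose from 6.25 ± 1.25 to 13.3 ± 2.32 FPKM (log2 change 0.99), whereas PDGFC, which PLAT activates, fell from 70.6 ± 4.51 to 53.1 ± 0.66 (log2 change -0.40, limma adjusted p = 0.0019). MMP3, a matrix metalloproteinase that plasmin can activate, fell from 79.6 ± 12.4 to 41.8 ± 3.72 FPKM, and the gene of the latent growth factor TGFB1 from 39.1 ± 3.69 to 21.9 ± 0.76. The other metalloproteinases of the list differed in direction. MMP1 rose from 50.6 ± 18.3 to 77.9 ± 10.6 FPKM (limma adjusted p = 0.030) and MMP9 fell from 3.06 ± 1.55 to 1.23 ± 0.04 (limma adjusted p = 0.022). MMP13 had at most 3 reads.

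The falls of ANXA2 and S100A10 were set beside their families. Of 9 other annexin entries tested, 0 rose and 2 fell, namely ANXA1 from 268 ± 19.97 to 207 ± 10.8 FPKM (log2 change -0.37, limma adjusted p = 0.0052) and ANXA7 from 26.5 ± 3.43 to 20.4 ± 0.51 (-0.35, limma adjusted p = 0.015). Over all tested genes 12.9% were called higher and 23% lower, and the median log2 change was -0.10, against -0.12 for these annexins. ANXA5, the next most abundant annexin, had means of 291 ± 0.72 and 305 ± 9.32 FPKM (limma adjusted p = 0.51). The limma adjusted p of ANXA7 was 0.052 without control replicate 1, 0.064 without YAP replicate 1, 0.052 after median-of-ratios scaling and 0.059 after quantile normalization. Without YAP replicate 1 and after median-of-ratios scaling 1 annexin call was left, and after quantile normalization 1 annexin was called higher and 1 lower. Of 8 other S100 genes tested, 1 rose and 6 fell, with a median log2 change of -0.42, and the 7 calls became 4 without YAP replicate 3 or after median-of-ratios scaling. The most abundant, S100A4, fell from 4909 ± 419 to 3710 ± 340 FPKM (limma adjusted p = 0.013), a call lost in 5 of 15 alternatives. Its limma adjusted p was 0.071 without control replicate 1, 0.070 without YAP replicate 1, 0.052 without YAP replicate 3, 0.063 after median-of-ratios scaling and 0.11 with no filter. S100A16 fell from 111 ± 7.76 to 71.6 ± 5.56 FPKM (log2 change -0.63), S100A2 from 71.1 ± 10.5 to 42.8 ± 6.64 (-0.72) and S100A5 from 3.11 ± 0.61 to 1.67 ± 0.25 (-0.62), while S100B rose from 31.2 ± 3.08 to 39.8 ± 1.34 (0.34). On FPKM without a pseudocount the means of S100A5 differed 1.87-fold, against 1.71-fold for S100A10 and 1.72-fold for ANXA2, and these sizes were not tested against each other.

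Serpins outside the system gave 2 higher and 5 lower calls among 12 tested entries, with a median log2 change of -0.18, and the count of 7 was 3 without YAP replicate 1 and 4 without control replicate 1 or YAP replicate 3. SERPING1, the C1 inhibitor, rose from 1.80 ± 0.12 to 2.83 ± 0.40 FPKM, and SERPINB9 (LOC102180906), a granzyme inhibitor, from 10.3 ± 0.20 to 13.1 ± 0.30. An entry named SERPINB6 (LOC102171142) fell from 6.08 ± 1.36 to 3.12 ± 0.47 FPKM, 1 of several entries of that name whose reads may be shared. SERPINF1, the secreted antiangiogenic factor PEDF, fell from 25.1 ± 5.96 to 16.8 ± 0.31 FPKM.

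Of 5 tested genes of cell-surface coagulation, where SERPINE2 acts as a thrombin inhibitor, 2 rose and 2 fell. THBD, thrombomodulin, which turns thrombin towards protein C, rose from 8.87 ± 0.42 to 23.5 ± 0.21 FPKM, by 1.31 on the log2 scale (SE 0.08, limma adjusted p = 2.9e-07). F3, tissue factor, rose from 11.6 ± 2.48 to 20.4 ± 0.52. TFPI2, a Kunitz-type inhibitor that also inhibits plasmin, fell from 83.1 ± 4.94 to 49.9 ± 2.14 FPKM (log2 change -0.72), and the thrombin receptor cofactor gene F2RL2 fell from 4.33 ± 0.31 to 3.02 ± 0.04. The prothrombin gene F2 had at most 1 read.

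**Figure D5:**
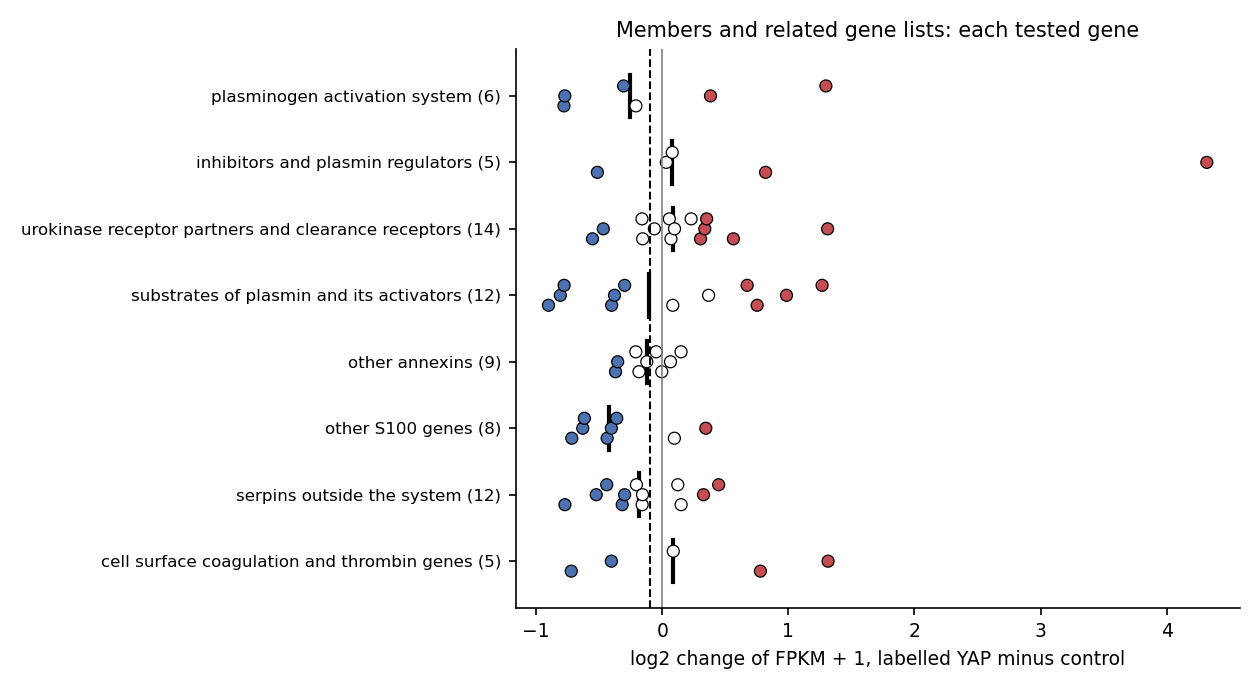
Log2 change of every tested gene in the member list and in 7 related lists (points; red rose, blue fell, white did not pass), with the number tested in parentheses, the list median (thick bar) and the median of all tested genes (dashed line). The point at 4.32 is SERPINB2 at LOC102181552.

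The annotation in the deposited table was uneven over the 6 genes. It gave 14 gene ontology terms for PLAU, 15 for PLAUR, 17 for PLAT and 37 for SERPINE2, and 0 for ANXA2 and S100A10.

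Of 6 smooth muscle and pericyte markers, ACTA2 and CNN1 were higher, CSPG4 was lower, and MYH11, DES and RGS5 were below the filter on low values. Their summed level, most of it ACTA2, ran from 386 to 610 FPKM in controls and from 798 to 902 in the libraries labelled YAP. Their part in the changes above was not tested. Of 7 leukocyte markers, 6 were below the filter, with PTPRC at no more than 1 read and AIF1 at 0. The summed level ran from 4.82 to 5.52 FPKM in controls and from 2.03 to 2.67 in the libraries labelled YAP. Most of it was the 1 tested marker, CD68, which fell from 4.53 ± 0.44 to 2.03 ± 0.28 FPKM (limma adjusted p = 8.3e-05). In bulk libraries, fewer cells of a kind and less RNA per cell cannot be told apart.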

How the data were processed

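Per the labels' protocols, TRIzol served for RNA extraction and the VAHTS Universal V6 kit for the libraries. Tools named in the submitters' processing notes are fastp, HISAT2 and HTSeq, and no source used here gives the genome build, annotation or strand setting. Values were deposited by the authors as FPKM in 2 tables, with groups and replicate numbers taken here from the sample titles. All 6 further columns that match no sample title were compared with the 6 libraries for identity. The 3 named pcDNA were equal to the controls, the 3 named TAZ were equal to no library, and none entered a test. Gene names are those of the tables, and 16262 of 16285 identifiers matched RefSeq (ARS1.2, used for names and neighbours only). List genes without a symbol of their own were matched through the symbol column, and 18 of 147 list genes without an entry were not analysed here. A further list gene is not reported here.

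FPKM were compared as log2(FPKM + 1), pseudocount 1, where 3 or more libraries reached 1 FPKM, with limma 3.58.1 (R 4.3.3, eBayes with trend, threshold 0.05), tested on simulated data. Fold changes on this scale understate changes of low genes. Reads were recovered from FPKM, whole within 0.05 reads for all 87460 values above 0, and reads cover counting error only. No 2 replicates agreed within counting noise (chi-square per gene from 7.69 to 30.7). Exact permutation tests used scipy 1.17.1. Ratios within a library used FPKM without a pseudocount.

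The members and lists were chosen with earlier results of these data known. Named genes are the members, up to 4 passing genes with the smallest adjusted p per list, PLG and SERPINB2, the label checks YAP1, WWTR1 and LATS2, and the 3 genes closest in pattern to the 3 members with the smallest adjusted p. Other genes named (LRP1, PDGFC, MMP1, MMP9, ANXA5, PLGRKT, ENO1, S100A4, markers and genes with few reads) were picked with their values in view. The alternatives comprised a pseudocount of 0.1, no filter or one at 0.1 FPKM, median-of-ratios scaling, quantile normalization, a replicate block, no trend, library weights, limma-voom on recovered reads (chosen after seeing the data), and leaving out each library.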

Additional observations from a re-analysis of the deposited data

How the results depend on the processing

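PLAU, SERPINE2, ANXA2 and S100A10 kept direction and call in all 15 alternatives, and PLAUR and PLAT kept direction. PLAT no longer passed after median-of-ratios scaling (-0.22) or quantile normalization (-0.22), and over the fits without a library its log2 change ran from -0.36 to -0.25, with the call lost without YAP replicate 1 or 3. PLAUR passed with library weights (-0.28) and with the replicate number as a block (-0.21, limma adjusted p = 0.039). Same-numbered libraries deviated together for numbers 2 (r = 0.591 across genes) and 3 (r = 0.597) but not for 1 (r = -0.018), so the numbers were not taken as pairs, and control replicate 1 correlated best with YAP replicate 2 (r = 0.118). Deviations from a group mean cancel out within the group, so these r values are not independent. They do not settle whether the numbers are pairs. With the block 5573 genes passed in place of 3868, and 4 other annexins in place of 2.

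Of 3868 calls 64.0% were lower, against 45.6% of 3189 after median-of-ratios scaling. The planned limma-voom with TMM is not reported, since its factors come from a tool for raw counts. Limma-voom on library totals, chosen after seeing the data, gave 3845 calls and kept each call of the members. Without YAP replicate 1 the count was 2290, and over all fits without a library it ran from 2290 to 3515. The sign of the ANXA2 to S100A10 ratio, near 0, turned without control replicate 1 (0.0070) and without YAP replicate 1 (0.012), within a range from -0.022 to 0.012.

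Counts in the related lists moved with these choices. Partners of the urokinase receptor gave 4 calls with no filter on low values and 4 to 8 without a library. Other annexins gave 1 call after median-of-ratios scaling, 4 with library weights or the block, and 1 to 2 without a library. Other S100 genes gave 4 calls after median-of-ratios scaling and 4 to 7 without a library. Serpins outside the system gave 3 calls with no filter and 3 to 8 without a library. The cause of these shifts was not tested. With 3 libraries a group an exact test cannot go below p = 0.1, so for the ratios the exact p says nothing about stability. Depth is not the limit for the 6 genes, whose lowest read count was 1780.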
